A study of Mus musculus with 10 samples.

Results

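Genes for the coat of the lipid droplet and for the enzymes and channel that fill and empty it were followed in aortas of male NPAS2 mutant and male wild-type mice. The 10 listed genes were Plin1, Plin4, Cidec, Lipe, Pnpla2, Mgll, Dgat1, Dgat2, Aqp7 and Gpd1, and every probe set that the array's annotation gives to 1 of them by symbol or synonym was taken. That found 20 probe sets for 9 genes, out of 18193 genes with a probe set of their own, while no probe set is named for Plin1 in the annotation used, so Plin1 was not analysed here. Each group held 5 arrays of total RNA: NPAS2 mutants on a C57Bl/6J background, and wild types given as C57Bl/6. All mice were killed at zeitgeber time 14 h, after 2 weeks or more of 12 h light and 12 h dark followed by 30 h or more in constant darkness. Neither the kind of Npas2 mutation nor the age of the mice is given in the sources used here, and the labels do not say that each array came from its own mouse. The p values therefore cover only how far these arrays differ among themselves, which may be technical. The labels give the tissue as thoracic aorta in 1 place and as the vessel from the arch to past the femoral branching in another.

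A fat cell stores triglyceride in a droplet coated by proteins. Perilipins, among them those made from Plin1 and Plin4, lie on its surface, and the protein of Cidec (also called FSP27) lets droplets fuse into a single large one. The enzymes of Dgat1 and Dgat2 make the last step of triglyceride synthesis, and that of Gpd1 makes the glycerol 3-phosphate backbone. Triglyceride is taken apart in order by adipose triglyceride lipase (Pnpla2), hormone-sensitive lipase (Lipe) and monoglyceride lipase (Mgll), and glycerol leaves the cell through the channel of Aqp7. In the mouse the thoracic aorta lies in brown fat, and white fat lines much of the rest, so an aortic sample can hold fat cells.

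The levels show what the sample held. Expression is given as the log2 value that the authors deposited for each probe set, which spanned 1.10 to 14.74 over the 10 arrays. Smooth muscle markers were bright, Acta2 standing at 14.38 ± 0.06 in mutants and 14.42 ± 0.10 in wild types (SD, n = 5 each), as the label aorta asks. Fat markers were bright as well, with Adipoq, the gene of adiponectin, at 13.06 ± 0.11 in mutants and 12.95 ± 0.18 in wild types (SD, n = 5 each). Npas2 itself was dim and did not pass the test, its brighter probe set averaging 3.43 ± 0.03 in mutants and 3.71 ± 0.24 in wild types (SD, n = 5 each, limma adjusted p = 0.249). Skeletal muscle signal varied widely among arrays, with list means from 3.35 to 10.91 in mutants and from 3.28 to 9.69 in wild types.

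In GRCm38.p6 Mgll spans chr6:88724412-88828360, Cidec chr6:113424634-113435760 and Plin4 chr17:56100587-56109948, while Lipe, Pnpla2 and Dgat2 lie on chromosome 7, Dgat1 and Gpd1 on 15 and Aqp7 on 4. Promoter sequence was set beside the members because the protein of Npas2, paired with the product of Arntl, binds the E-box CACGTG. The RefSeq table of GRCm38.p6 held 11 windows of 300 bases, 250 before and 50 after a transcript start, for 7 of the genes (Plin1, Plin4, Cidec, Lipe, Pnpla2, Mgll and Aqp7). An E-box was found in 2 of these 11 windows, 1 of Lipe and 1 of Mgll, while 7.15% of all 32851 windows hold one. Those windows are shown here, 5′ to 3′ along the gene, with the E-box in capitals. The Lipe window lies on the minus strand at chr7:25395938-25396237 and its E-box begins at base -155 from the start site. The Mgll window lies on the plus strand at chr6:88724162-88724461 and its E-box begins at -44.
Lipe: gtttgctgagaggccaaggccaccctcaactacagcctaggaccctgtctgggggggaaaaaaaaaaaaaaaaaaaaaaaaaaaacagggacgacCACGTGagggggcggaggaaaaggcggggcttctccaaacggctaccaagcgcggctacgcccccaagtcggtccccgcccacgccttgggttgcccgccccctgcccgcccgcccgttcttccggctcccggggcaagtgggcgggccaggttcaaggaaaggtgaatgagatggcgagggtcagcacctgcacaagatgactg
Mgll: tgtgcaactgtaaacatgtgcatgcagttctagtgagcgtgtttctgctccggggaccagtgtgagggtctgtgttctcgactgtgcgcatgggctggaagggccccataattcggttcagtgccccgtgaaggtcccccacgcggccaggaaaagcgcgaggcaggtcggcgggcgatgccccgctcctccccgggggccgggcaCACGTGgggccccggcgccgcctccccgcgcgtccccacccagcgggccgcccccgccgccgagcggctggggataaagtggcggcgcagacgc

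The related E-box variant CACGTT, sought on both strands, was found in the second Mgll window only, against 4.68% of all windows. A direct repeat of AGGTCA with 1 base between, the form that PPAR and RXR receptors bind, was in 0 of the 11 windows and in 0.0396% of all. TATAAA was in 0 of the 11 and in 13.6% of all. A match is a run of letters and shows no binding, and a window without one says nothing about the factor.

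No gene of the set passed the test between mutants and wild types. The test was limma on the deposited log2 values, mutant minus wild type, adjusted by the method of Benjamini and Hochberg over the 22340 probe sets that were above their array's median on 5 or more arrays, with a threshold of 0.05. Of the 20 probe sets of the members 17 were bright enough to be tested, covering all 9 genes, and 3 were not (1 each of Lipe, Mgll and Gpd1). Of the 17, 0 were called, against 0.215% of all tested probe sets, 0 were called by an ordinary one-way analysis, and their adjusted p lay between 0.15 and 0.942. At an unadjusted limma p of 0.05, 4 of the 17 passed, against 15.3% of all tested probe sets. The mean was higher in mutants on 16 of the 17 and lower on 1. With the brightest tested probe set standing for each gene, 8 of 9 genes had the higher mean in mutants, with a median log2 change of 0.24, while 44.1% of the 10945 tested genes had the higher mean and their median was -0.02.

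**Figure D1:**
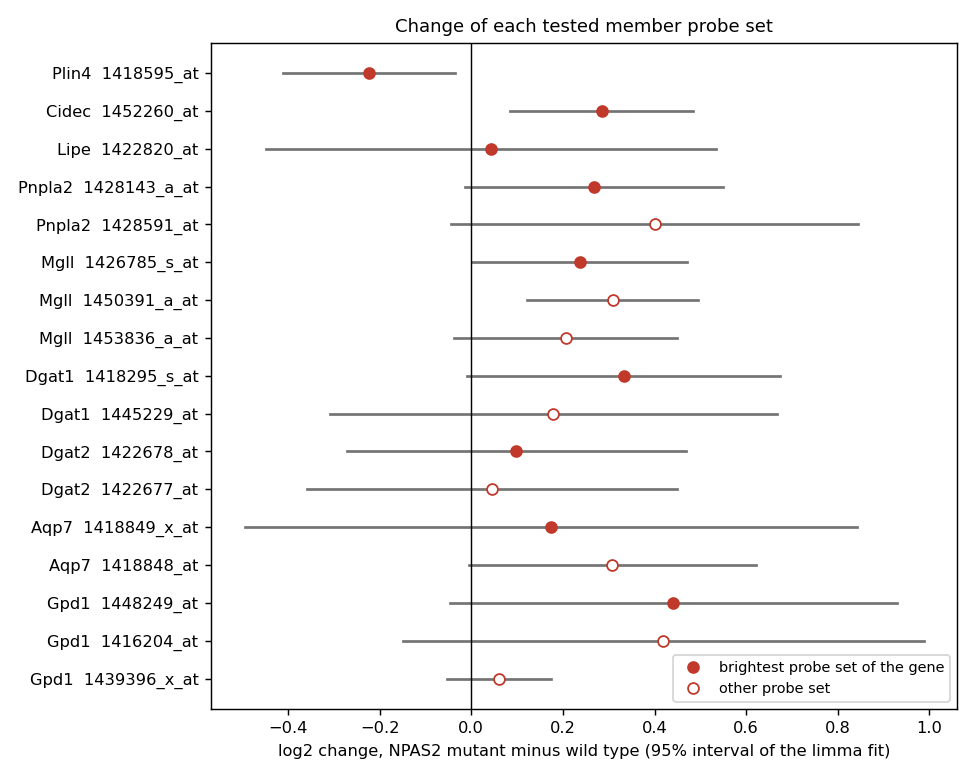
Log2 change (mutant minus wild type) of the 17 tested probe sets, with 95% intervals of the limma fit; filled points are the brightest probe set of a gene. The intervals of Plin4, Cidec and 2 of the Mgll probe sets leave out 0 before adjustment, and Plin4 alone lies below 0.

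The coat genes Cidec and Plin4 had opposite directions. Cidec (1452260_at) stood at 10.70, 10.68, 10.69, 10.35 and 10.64 in mutants F12, F13, F18, F19 and F20, against 10.36, 10.21, 10.18, 10.35 and 10.54 in wild types F11, F14_2, F15, F16 and F17. Only mutant F19 lay within the wild-type range, and the other 4 mutant arrays were above every wild type. Its log2 change was 0.28 ± 0.09 (SE), or 1.22-fold, with a 95% interval of 0.08 to 0.485 and a limma adjusted p of 0.189. An exact two-sided permutation test over all 252 splits gave p = 0.0317 for this probe set alone.

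Plin4 (1418595_at), the perilipin that coats small new droplets in fat cells, stood at 10.20, 10.19, 10.05, 10.03 and 9.96 in mutants F12, F13, F18, F19 and F20. It stood at 10.20, 10.35, 10.15, 10.28 and 10.56 in wild types F11, F14_2, F15, F16 and F17. All 5 mutant arrays were below the wild-type mean, but F12 and F13 reached into the wild-type range, so the groups overlapped. The log2 change was -0.22 ± 0.08 (SE), with a 95% interval of -0.41 to -0.04 and a limma adjusted p of 0.253, and the exact permutation test (two-sided) gave p = 0.0317. The difference Cidec minus Plin4 within an array lay between 0.32 and 0.68 in mutants and between -0.14 and 0.16 in wild types, with no overlap, a pattern noticed in these values and therefore given with no test. The 2 genes were set against each other because their changes went opposite ways, so a gap between the groups was partly built in. How many other pairs of genes have such a gap was not counted. The mean of the other members minus Plin4 lay between -0.97 and -0.36 in mutants and between -1.38 and -0.77 in wild types, with overlap.

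Among the tested probe sets of the lipases, 1 of Mgll alone had no overlap between the groups. On their brightest probe sets Mgll (0.24) and Pnpla2 (0.27) had changes of like size, and both overlapped. On its probe set 1450391_a_at Mgll stood at 9.08, 8.87, 8.69, 8.76 and 8.83 in mutants F12, F13, F18, F19 and F20, against 8.62, 8.47, 8.68, 8.53 and 8.39 in wild types F11, F14_2, F15, F16 and F17. The groups did not overlap, though mutant F18 was barely above wild type F15. It was the 1 probe set of the 17 that lay wholly above the wild types, where 1.5% of all tested probe sets did. The log2 change was 0.31 ± 0.08 (SE, 1.24-fold, 95% interval 0.12 to 0.50), with a limma adjusted p of 0.15, the lowest among the members. The exact two-sided permutation p was 0.00794, the smallest that 5 against 5 arrays can give, and any probe set without overlap gets it. It belongs to 1 probe set picked out of the 17 and is not adjusted for that. Of the brightest probe sets, those of Cidec and Plin4 alone had a permutation p under 0.05. The other brightest ones ran from 0.0714 (Mgll) to 0.905 (Lipe) in the same permutation test. The brightest Mgll probe set, 1426785_s_at, had a change of 0.24 ± 0.11 (SE, limma adjusted p = 0.320) and 1453836_a_at one of 0.21 ± 0.11 (SE, limma adjusted p = 0.387). Both overlapped between the groups, and on each the wild-type mean was below all 5 mutants.

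Pnpla2 (1428143_a_at), which begins the breakdown of triglyceride, stood at 10.82, 11.06, 10.51, 10.40 and 10.86 in mutants F12, F13, F18, F19 and F20, against 10.47, 10.72, 10.30, 10.42 and 10.40 in wild types F11, F14_2, F15, F16 and F17. Mutants F12, F13 and F20 were above all wild types, F18 was within their range, and F19 was level with the lower ones. For Pnpla2 the log2 change was 0.27 ± 0.13 (SE), with a 95% interval of -0.01 to 0.55 and a limma adjusted p of 0.345. A dim second probe set, 1428591_at, had a change of 0.40 ± 0.20 (SE, limma adjusted p = 0.364).

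Lipe (1422820_at) had mutant arrays on both sides of the wild-type range. It stood at 9.04, 9.03, 7.97, 8.25 and 8.33 in mutants F12, F13, F18, F19 and F20, against 8.57, 8.5, 8.81, 8.02 and 8.51 in wild types F11, F14_2, F15, F16 and F17. Mutants F12 and F13 were above every wild type, and the other 3 mutants were below the wild-type mean. The log2 change was 0.04 ± 0.22 (SE, limma adjusted p = 0.942), and its 95% interval of -0.45 to 0.53 leaves room for a change in either direction larger than that of Mgll.

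**Figure D2:**
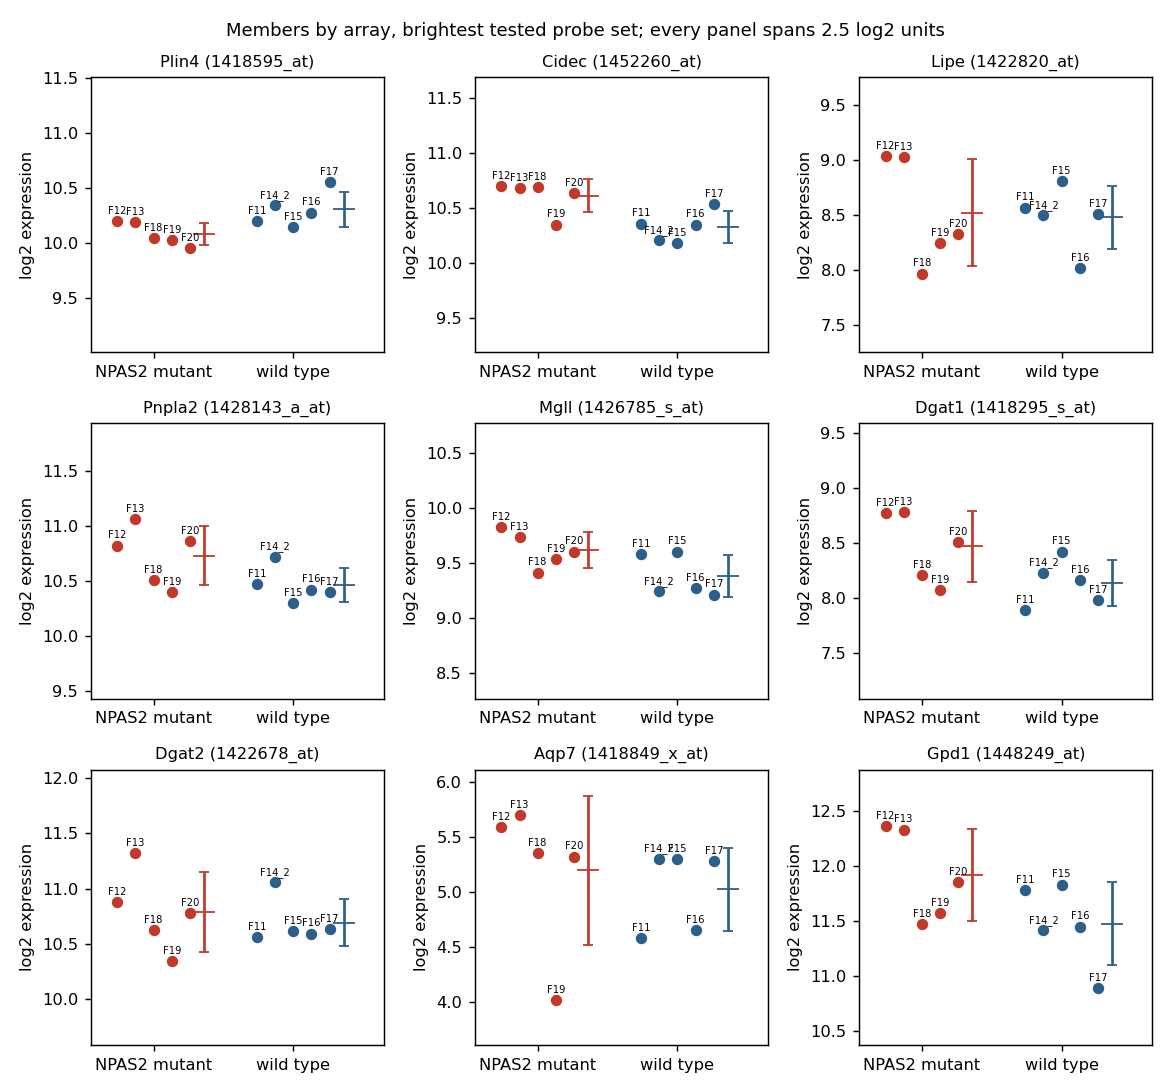
Log2 expression of the brightest tested probe set of each of the 9 genes, 1 point per array with its replicate name, NPAS2 mutants left and wild types right; the bar beside each group is the mean ± SD (n = 5). Mutants F12 and F13 are the upper mutant points in Lipe, Dgat1, Aqp7 and Gpd1, and Plin4 has its 5 mutant points below the wild-type mean.

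Dgat1, Dgat2 and Gpd1, the genes of triglyceride synthesis in the set, were not called, and the 95% intervals of their brightest probe sets overlapped. Dgat1 (1418295_s_at) stood at 8.77, 8.78, 8.21, 8.07 and 8.51 in mutants F12, F13, F18, F19 and F20, against 7.89, 8.23, 8.42, 8.16 and 7.98 in wild types F11, F14_2, F15, F16 and F17. Mutants F12, F13 and F20 were above all wild types and F18 and F19 lay among them. Dgat1 had a log2 change of 0.33 ± 0.15 (SE), with a 95% interval of -0.01 to 0.67 and a limma adjusted p of 0.335. This probe set carries a suffix that marks probes shared with other transcripts, and a suffix of this kind is also on the brightest Mgll and Aqp7 probe sets. The dim second probe set of Dgat1, 1445229_at, had a change of 0.18 ± 0.22 (SE, limma adjusted p = 0.709).

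Dgat2 (1422678_at), which makes the same product as Dgat1, stood at 10.88, 11.32, 10.62, 10.34 and 10.78 in mutants F12, F13, F18, F19 and F20, against 10.56, 11.06, 10.61, 10.59 and 10.63 in wild types F11, F14_2, F15, F16 and F17. The groups overlapped throughout, with mutant F13 the highest and mutant F19 the lowest of the 10 arrays. Its log2 change was 0.10 ± 0.17 (SE, 95% interval -0.27 to 0.47, limma adjusted p = 0.795), and 0.05 ± 0.18 (SE) on 1422677_at. Whether Dgat1 and Dgat2 differ in their change was not tested.

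Gpd1 (1448249_at) had the largest mean difference of the 9 genes and also a wide spread. It stood at 12.36, 12.33, 11.47, 11.57 and 11.85 in mutants F12, F13, F18, F19 and F20, against 11.78, 11.42, 11.83, 11.45 and 10.89 in wild types F11, F14_2, F15, F16 and F17. Mutants F12 and F13 were above all wild types, F20 was just above the highest of them, and F18 and F19 lay among them, while wild type F17 was the lowest array. This gave Gpd1 a log2 change of 0.44 ± 0.22 (SE, 1.36-fold), with a 95% interval of -0.05 to 0.93 and a limma adjusted p of 0.364. Probe set 1416204_at gave 0.42 ± 0.26 (SE, limma adjusted p = 0.444), and the dim 1439396_x_at gave 0.06 ± 0.05 (SE, limma adjusted p = 0.572).

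Aqp7, the glycerol channel, had overlapping groups on both of its probe sets. On 1418849_x_at it stood at 5.59, 5.70, 5.35, 4.02 and 5.32 in mutants F12, F13, F18, F19 and F20, against 4.58, 5.30, 5.30, 4.65 and 5.28 in wild types F11, F14_2, F15, F16 and F17. Mutants F12, F13, F18 and F20 were above the wild types, by little in F18 and F20, and mutant F19 was the lowest of all arrays. The log2 change was 0.17 ± 0.30 (SE, limma adjusted p = 0.800). On 1418848_at it was 0.31 ± 0.14 (SE, limma adjusted p = 0.332).

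The mutant arrays differed among themselves in the same way in most of these genes. Set against the wild-type mean, the median deviation over the 9 genes was 0.44 in mutant F12, 0.60 in F13, 0.03 in F18, -0.07 in F19 and 0.30 in F20, and between -0.06 and 0.22 in wild types. In F12 and in F13 8 of the 9 genes were above the wild-type mean, Plin4 being the exception. Without both of those arrays, a choice made after the values were seen, the median change of the 9 genes was 0.13, and Lipe, Dgat2 and Aqp7 had a lower mean in mutants. Cidec kept a change of 0.23 ± 0.11 (SE) and Plin4 one of -0.30 ± 0.10 (SE), with limma adjusted p of 0.458 and 0.343.

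**Figure D3:**
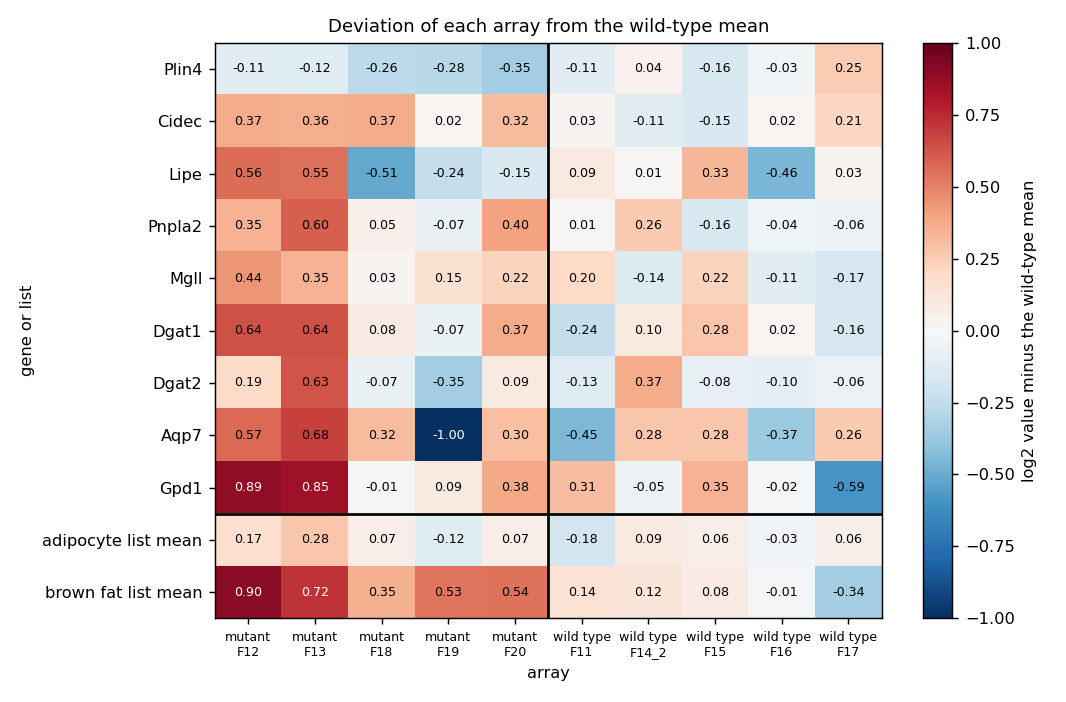
Log2 value of each array minus the wild-type mean, for the 9 genes and for the means of the adipocyte and brown fat lists, mutant arrays left and wild types right, on a colour scale from -1 to 1. Mutants F12 and F13 are above 0 in every row except Plin4, and the brown fat row is above every wild type in all 5 mutants.

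As a description of how the genes varied together, deviations from the group means were correlated over the 10 arrays, which share whatever tissue each sample held. Over the 36 pairs of genes Pearson's r had a median of 0.48 and ran from -0.26 (Plin4 with Mgll) to 0.93 (Pnpla2 with Dgat2), and 32 pairs were above 0. Mgll and Gpd1 reached 0.91 (r = 0.905), while the median r with the other genes was lowest for Cidec (0.21), Mgll (0.22) and Plin4 (0.31) and highest for Dgat1 (0.68). Outside the set, the genes most like the mean of the 9 were Gpt (alanine aminotransferase, r = 0.949, rho = 0.952), A530053G22Rik (r = 0.945, rho = 0.976), Scarf1 (a scavenger receptor, r = 0.940, rho = 0.915), Eci2 (an enzyme of unsaturated fatty acid oxidation, r = 0.939, rho = 0.903) and Ginm1 (r = 0.938, rho = 0.842). They are the top of 10945 genes ranked on 10 arrays.

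Lists of related genes gave the surroundings of the set. Over the 5 pathway lists 63 genes were listed and 50 tested, of which 0 were called by limma, against 0.183% of all tested genes. At an unadjusted limma p of 0.05, 14 were higher and 0 lower in mutants, where the shares over all tested genes were 5.21% higher and 9.83% lower. Their median log2 change was 0.17.

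Among other droplet proteins the mutant mean was above that of wild types in 8 of 13 tested genes and below it in 5, with a median change of 0.01. The perilipin Plin5, known from oxidative tissues, averaged 7.34 ± 0.315 in mutants and 6.78 ± 0.22 in wild types (SD, n = 5 each; log2 change 0.56, limma adjusted p = 0.152). Plin2, a perilipin found in most cells, averaged 9.69 ± 0.29 in mutants and 9.17 ± 0.325 in wild types (SD, n = 5 each; log2 change 0.52, limma adjusted p = 0.203). Fitm2, which helps droplets form at the endoplasmic reticulum, had a change of 0.29 (limma adjusted p = 0.121) and Bscl2, the gene of seipin, one of 0.20 (limma adjusted p = 0.228).

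All 12 tested genes of lipolysis control had the higher mean in mutants, with a median change of 0.16. Abhd5, the activator of the Pnpla2 lipase, had a change of 0.37 (limma adjusted p = 0.152) and Hcar1, a lactate receptor that restrains lipolysis, one of 0.39 (limma adjusted p = 0.213). G0s2, the inhibitor of the same lipase, had one of 0.09 (limma adjusted p = 0.840) and is named after its value was seen, being outside the rule for naming genes.

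In triglyceride synthesis upstream of Dgat1 and Dgat2 9 of 11 tested genes had the higher mean, with a median change of 0.28. Gpam, the mitochondrial acyltransferase of the first step, averaged 9.43 ± 0.28 in mutants and 8.84 ± 0.13 in wild types (SD, n = 5 each; log2 change 0.59, limma adjusted p = 0.0985). With only probe sets above the 75th percentile tested, its limma adjusted p was 0.0479, the 1 call among the 40 genes of these lists then tested. That filter called 141 of 11283 probe sets in all, against 48 of 22340 in the main fit. Agpat3 (0.53), Acsl5 (0.55) and Gpat4 (0.30), enzymes that activate or attach fatty acids, had limma adjusted p between 0.121 and 0.265. Of 6 tested genes of glycerol handling 4 were higher and 2 lower, with a median of 0.17, and Aqp3, a second glycerol channel, was dim with a change of 0.13 (limma adjusted p = 0.254). Of 8 regulators of fat genes 6 were higher and 2 lower, with a median of 0.14, and Cebpb (0.65), Nr1h3 (0.44) and Mlxipl (0.56), transcription factors of fat and lipid synthesis, had limma adjusted p between 0.114 and 0.185.

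**Figure D4:**
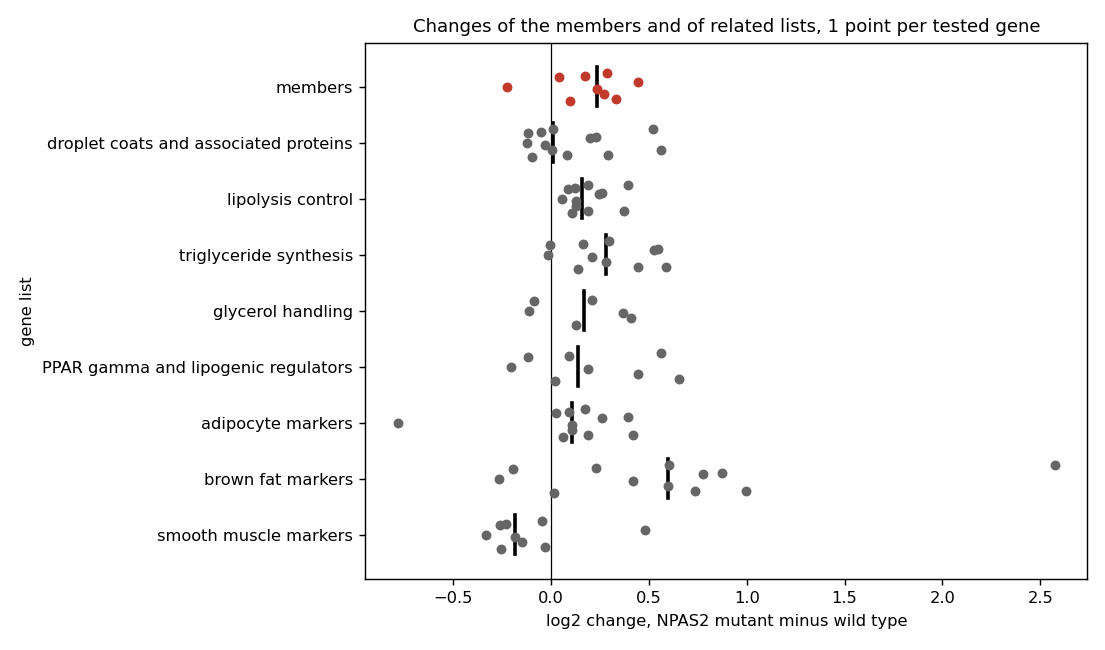
Log2 change (mutant minus wild type) of the 9 genes and of the tested genes of 8 related lists, 1 point per gene at its brightest tested probe set, with black bars at list medians. The 9 genes have a median of 0.24, brown fat markers one of 0.60 and smooth muscle markers one of -0.18.

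Most markers of fat differed in the same direction as most of the set. Cidea, Fabp4, Pparg and Cebpa each stand in more than 1 of these lists. Of 11 tested adipocyte markers 10 were higher and 1 lower in mutants, with 0 called, a median change of 0.11, and list means between 10.39 and 10.79 in mutants and between 10.33 and 10.60 in wild types. The 4 that led by p were Lpl (0.26), Adig (0.42) and Slc2a4 (0.39), all higher, and the hormone gene Lep, lower by mean at -0.78, with limma adjusted p between 0.122 and 0.281. Of 12 tested brown fat markers 10 were higher and 2 lower, with 0 called, a median change of 0.60, and list means between 8.83 and 9.38 in mutants and between 8.14 and 8.62 in wild types, without overlap. They were led by Elovl3 (2.57), Slc27a2 (0.73), Ucp1 (0.996) and Dio2 (0.78), with limma adjusted p between 0.111 and 0.155. Named outside the rule for naming genes, the 2 lower ones were Prdm16 (-0.27) and Eva1b (-0.20). Ppargc1a was nearly level (0.02), and Zic1 was too dim to be tested. In such bulk samples more fat cells and more RNA per fat cell cannot be told apart.

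With the adipocyte list mean as a covariate the change was 0.24 ± 0.10 (SE) for Cidec, -0.27 ± 0.09 for Plin4, 0.22 ± 0.12 for Mgll and 0.35 ± 0.24 for Gpd1. It was 0.16 ± 0.11 for Pnpla2, 0.17 ± 0.11 for Dgat1, -0.12 ± 0.21 for Lipe, -0.08 ± 0.11 for Dgat2 and -0.19 ± 0.15 for Aqp7. With the brown fat list mean as a covariate Cidec had a change of 0.40 ± 0.18 (SE) and Plin4 one of -0.14 ± 0.17, while the other 7 genes had changes below 0, from -0.74 ± 0.35 for Lipe and -0.65 ± 0.20 for Gpd1 to -0.06 ± 0.23 for Pnpla2. No gene of the set was called in either fit. Because the brown fat list means did not overlap between the groups, that fit can hardly tell the covariate from genotype. With it the SE was wider than without a covariate for every gene but Gpd1, as for Plin4 (0.17 against 0.08). The changes below 0 are therefore given with no reading.

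**Figure D5:**
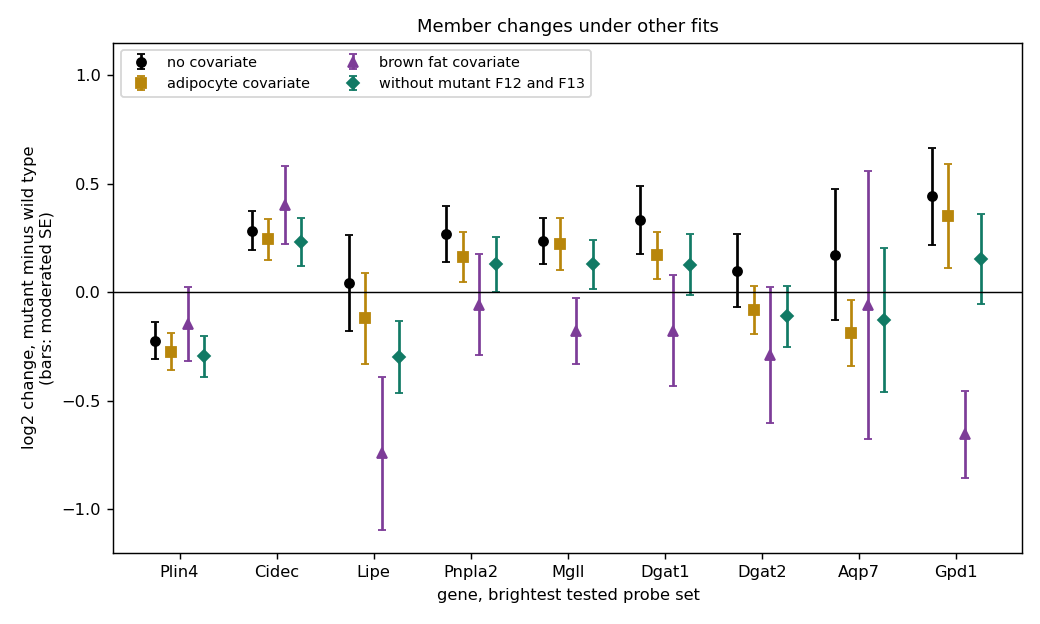
Log2 change (mutant minus wild type, bars 1 moderated SE) of the 9 genes without a covariate, with the adipocyte or brown fat list mean as a covariate, and without mutants F12 and F13. Cidec lies above 0 and Plin4 below 0 in all 4 fits, and Lipe, Dgat2 and Aqp7 lie below 0 in all but the fit with no covariate.

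Markers of other cells are given by their counts. Of 9 smooth muscle markers 8 had the lower mean in mutants, led by Cnn1 (-0.26), Lmod1 (-0.26), Smtn (-0.33) and Myh11 (-0.18), with 0 called. The 1 with the higher mean, named outside the rule for naming genes, was Des (0.48 ± 0.40, SE), with overlapping groups. Means of the smooth muscle list lay between 10.69 and 11 in mutants and between 10.84 and 11.14 in wild types. All 6 macrophage markers had the higher mean, led by Cd14 (0.45), Lyz2 (0.36) and Adgre1 (0.35), with 0 called, a median change of 0.29 and list means between 7.05 and 7.51 in mutants and between 6.81 and 7.07 in wild types. Of 7 endothelial markers 5 were higher and 2 lower, Pecam1 among the lower (-0.33), and all 5 tested fibroblast markers were higher, with a median of 0.04 (Pi16 0.22, Pdgfra 0.04). All 10 skeletal muscle markers had the higher mean, with a median change of 1.59 and overlapping groups (Myh1 2.91, Myh2 2.67), and of 3 tested cardiac markers 1 was higher (Actc1 0.70) and 2 lower (Myh6 -0.14 among them). None of the genes of these lists was called. Of these lists only the skeletal muscle one was used as a covariate, and the median change of the 9 droplet genes was then 0.25. The part of the other lists in the values of the droplet genes was not tested.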

How the data were processed

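Total RNA of 10 aorta samples was hybridised to Affymetrix MOE 430V2 arrays, per the labels. What the authors deposited is 1 log2 value per probe set and array. GCRMA and MAS5 appear in the submitters' processing notes, with no version and no word on which made the table. The log2 scale was read from the values, with upper quartiles per array between 5.40 and 5.55. Values were used as given. No scan date or other batch was known for any array, and no replicate name is shared between the groups.

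The table held 45101 probe sets, 64 of them controls. In the platform annotation 34958 had a single gene, 932 several and 9160 others none, and 34754 of the first were matched by gene ID to RefSeq of GRCm38.p6. Of the members' names none fell on a probe set with several genes.

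Limma 3.58.1 in R 4.3.3 (lmFit and eBayes, two-sided) compared 5 mutant with 5 wild-type arrays over 22340 probe sets above their array's median on at least 5 arrays, across all 10945 genes so measured. SE and 95% intervals are those of that fit, SD is over the 5 arrays of a group, and precision is limited by how few arrays there are. Members and gene lists were chosen with earlier results of these data known, so no list was tested as such. The brown fat list includes Eva1b, which is not an established marker. Genes outside the set were named by rule: of each list the called genes, or else up to 4 with the lowest unadjusted p under 0.05, or else the 2 of largest change, and the 5 genes most correlated with the set. The fit was also run on simulated data, with noise drawn for each probe set on its own and planted changes larger than those of the members. That run therefore does not cover changes as small as theirs or genes that vary together. Alternatives covered the filter, normalisation, variance model, array weights, an ordinary one-way analysis, covariates, probe set types and leaving out each array.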

Additional observations from a re-analysis of the deposited data

Results flagged for a closer look

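Single arrays stood apart from the other 4 of their group in 8 of 66 sets of 5 arrays examined (20 probe sets and 13 list means in 2 groups), by a gap to the nearest array of more than 0.71 of the range. About 5% of sets would do so by chance if values were spread normally. The sets share arrays and some share a gene, so 8 of 66 cannot be read as an excess over that rate. Cidec (1452260_at) in mutant F19 was 10.35, against 10.64 to 10.70 in the other mutants. Aqp7 (1418849_x_at) in the same array was 4.02, against 5.32 to 5.70, and the mean of the cardiac muscle markers there was 7.51, against 4.35 to 5.22. Without F19 the changes were 0.35 for Cidec and 0.47 for Aqp7, against 0.28 and 0.17 with all arrays. The Aqp7 change was also 0.0469 without mutant F13, 0.0754 without mutant F12, 0.0623 with wild type F11 left out and 0.0809 with F16 left out.

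Dgat2 in wild type F14_2 was 11.06 on 1422678_at, against 10.56 to 10.63 in the other wild types, and 11.02 on 1422677_at, against 10.41 to 10.46. Without F14_2 the Dgat2 change was 0.19 (1422678_at), against 0.10 with all arrays. The dim Gpd1 probe set 1439396_x_at was 3.91 in mutant F20, against 3.73 to 3.78, and 3.69 in wild type F16, against 3.73 in each of the others. The mean of the triglyceride synthesis genes was 7.20 in wild type F15, against 6.82 to 6.92. What lies behind these arrays was not tested.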

How the results depend on the processing

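No member probe set was called under any alternative run, among them no filter, other normalisations, an adjusted p of 0.1 and leaving out each array. The median change over the 9 genes lay between 0.13 and 0.29 under the other alternatives with all or with 8 arrays, between 0.19 and 0.35 when 1 array was left out, and was -0.18 with the brown fat covariate. The means of that list did not overlap between the groups, so the fit can hardly tell them from genotype, and the cause of the shift was not tested. Some alternatives, such as the filters, the variance model and the ordinary one-way analysis, cannot move the change of a gene with 1 probe set, as Cidec and Plin4 have. With these counted in, Cidec was higher and Plin4 lower in mutants under all 24 alternatives, from 0.23 to 0.40 and from -0.30 to -0.14. The others turned below 0 with the brown fat covariate, at -0.74 for Lipe, -0.0565 for Pnpla2, -0.18 for Mgll, -0.18 for Dgat1, -0.29 for Dgat2, -0.0581 for Aqp7 and -0.65 for Gpd1. With the adipocyte covariate Lipe was -0.12, Dgat2 -0.0823 and Aqp7 -0.19, and without mutants F12 and F13 they were -0.30, -0.11 and -0.13. Leaving out 1 array moved Lipe between -0.0866 (without mutant F12) and 0.18, being also below 0 without mutant F13 or wild type F16, and Dgat2 between -0.0352 (without mutant F13) and 0.21. Of the related genes 1, Gpam, was called at 0.05 with the 75th percentile filter and 0 under the other alternatives run at 0.05, and Gpam would also pass at 0.1 (limma adjusted p = 0.0985). Aqp7 was too dim for the 75th percentile filter.

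Over all probe sets 48 were called, 21 higher and 27 lower. Counts outside 1.5 times that number were 17 with no filter, 141 at the 75th percentile, 191 at an adjusted p of 0.1, 13 by the ordinary analysis, 9, 1 and 7 with the adipocyte, brown fat and skeletal muscle covariates, and 2 without mutants F12 and F13. With 1 array left out the count was 9 to 43, inside those limits without wild type F11 (34) or F14_2 (43) and under them with any of the other 8 arrays left out. Centring arrays on the median of tested probe sets, an alternative added after the data were seen as was leaving out F12 and F13, gave 34 higher and 18 lower and moved the median of all tested from -0.03 to 0.03. The 3 dimmest member probe sets were not tested for want of signal.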
